A study of Mus musculus with 12 samples.

Results

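A set of 6 genes whose RNA rose strongly with activin A in bone marrow-derived macrophages (BMDMs) was followed across all libraries of the experiment: *F11r*, *Cav1*, *Cspg4*, *Ermap*, *Gcnt2* and *Adgb*. They were picked by name for a strong rise in the Act libraries, so that their level in Act against the other groups is a description of how they were selected and is given without a test. They are 6 of the 18376 genes in the table, and all 6 were among the 14318 genes that entered the tests because their mean over all 12 libraries reached 5 normalized counts. *Ermap* passed that limit through its Act libraries alone, since its mean over the other 9 was 2.56, while the other 5 genes would have passed without Act. The cells were wild-type BMDMs grown from bone marrow progenitors of adult C57BL/6J mice, and every group received 50 ng/ml mouse recombinant M-CSF. The 4 groups of 3 libraries were kept for 6 days without further treatment (CTRL), with recombinant activin A at 50 ng/ml (Act), with both activin A and FST288 (Act + FST), or with FST288 alone at 250 ng/ml (FST). FST288 is a form of follistatin, which binds activin and blocks its access to the receptors. The labels do not say whether replicates came from separate mice, so the spread between libraries may in part be technical.

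Activins are dimeric ligands of the TGF-β superfamily. They bind type II and type I serine/threonine kinase receptors, which phosphorylate SMAD2 and SMAD3, and these enter the nucleus with SMAD4 and act on target genes together with other transcription factors. Macrophages carry this receptor system, and activin A is known to shift their phenotype in inflammation and fibrosis.

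The 6 genes are unlike in function. *F11r* encodes junctional adhesion molecule A (JAM-A), an immunoglobulin superfamily receptor of tight junctions and leukocytes. *Cav1* encodes caveolin-1, the scaffold of caveolae, and *Cspg4* encodes chondroitin sulfate proteoglycan 4 (NG2), a large transmembrane proteoglycan best known from pericytes and glial progenitors. *Ermap* encodes erythroid membrane-associated protein, a butyrophilin-like protein that carries the Scianna blood group antigens in humans. *Gcnt2* encodes the β-1,6-N-acetylglucosaminyltransferase that branches poly-N-acetyllactosamine chains into the I antigen. *Adgb* encodes androglobin, a chimeric protein with a globin domain and a calpain-like region, known from testis and ciliated cells. The annotation deposited with the table places the products of *F11r*, *Cav1*, *Cspg4* and *Ermap* at the plasma membrane. *Gcnt2* carries a membrane and a Golgi term but no plasma membrane term, and *Adgb* has no term of any kind. The annotation thus bears out a name such as surface genes only for the first 4, and the 6 are called activin-induced genes here. In GRCm38 (GENCODE annotation) the genes lie on 6 chromosomes: *F11r* at chr1:171437535-171464603 on the plus strand, *Cav1* at chr6:17306335-17341452 (plus), *Cspg4* at chr9:56865033-56899870 (plus), *Ermap* at chr4:119175457-119190011 (minus), *Gcnt2* at chr13:40859754-40960892 (plus), and *Adgb* at chr10:10335703-10472326 (minus). Of the 7051 exonic bases of *Gcnt2*, 777 (11%) are shared with the opposite-strand genes *A730081D07Rik* and *Gm31683*. The strand setting of the read counting is not given in the sources used here, and *A730081D07Rik* itself had at most 8 normalized counts in any library. No exonic base of the other 5 genes is shared with another gene.

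Promoter sequences are shown because SMAD proteins bind short DNA elements and all 6 genes responded to a SMAD-activating ligand. RefSeq (GRCm38.p6) gave 9 promoter windows for the 6 genes, each running from 250 bases before to 50 bases after a transcription start, with 2 starts for *Cav1* and 3 for *Gcnt2*. Printed here are 4 windows: *Ermap*, with the largest rise, *Adgb* and *Cspg4*, with the most SMAD half-sites, and *F11r*, with none. Capitals mark the half-site CAGAC and the GC-rich element GGCGC on either strand, and all other bases are in lower case.
Ermap (chr4:119189946-119190245, minus strand): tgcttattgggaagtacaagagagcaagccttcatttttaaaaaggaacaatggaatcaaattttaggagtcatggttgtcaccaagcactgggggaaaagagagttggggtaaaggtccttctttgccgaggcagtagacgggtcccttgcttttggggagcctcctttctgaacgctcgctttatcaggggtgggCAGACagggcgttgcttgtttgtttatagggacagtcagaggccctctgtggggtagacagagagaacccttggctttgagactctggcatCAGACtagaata
Adgb (chr10:10472350-10472649, minus strand): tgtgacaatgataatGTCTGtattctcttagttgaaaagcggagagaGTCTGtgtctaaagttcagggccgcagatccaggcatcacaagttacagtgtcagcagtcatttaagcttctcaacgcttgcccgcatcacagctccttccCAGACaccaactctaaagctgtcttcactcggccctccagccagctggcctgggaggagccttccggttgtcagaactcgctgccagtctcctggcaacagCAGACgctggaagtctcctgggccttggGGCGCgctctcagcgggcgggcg
Cspg4 (chr9:56864854-56865153, plus strand): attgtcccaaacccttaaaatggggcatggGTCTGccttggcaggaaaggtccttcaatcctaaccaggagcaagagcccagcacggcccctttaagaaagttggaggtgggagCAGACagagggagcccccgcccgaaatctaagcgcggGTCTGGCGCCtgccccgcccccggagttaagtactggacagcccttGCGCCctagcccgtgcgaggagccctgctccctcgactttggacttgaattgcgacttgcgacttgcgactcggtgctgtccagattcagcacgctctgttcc
F11r (chr1:171437311-171437610, plus strand): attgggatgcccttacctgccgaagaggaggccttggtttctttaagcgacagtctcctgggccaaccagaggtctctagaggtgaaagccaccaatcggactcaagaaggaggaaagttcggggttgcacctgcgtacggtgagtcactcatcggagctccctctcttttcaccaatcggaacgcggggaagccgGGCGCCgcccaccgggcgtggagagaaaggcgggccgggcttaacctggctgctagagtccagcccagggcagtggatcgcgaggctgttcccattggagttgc

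The half-site CAGAC was present in 5 of the 9 windows, and in 49.6% of all 32851 promoter windows of the same length. *Adgb* held 4 half-sites, a number reached by 0.907% of all windows, and *Cspg4* held 3, reached by 3.9%. *Ermap*, the second start of *Cav1* and the third start of *Gcnt2* held 2 each, a number reached by 16.2%. The element GGCGC was found in 5 of the 9 windows, against 36.9% of all windows. In *Cspg4* it overlaps the third half-site by 1 base, and in *Cspg4* and *F11r* the run GGCGCC is a match on both strands. An AP-1 site (TGANTCA) was present only in *F11r* among these windows, from 109 to 103 bases before the start, and occurs in 7.81% of all windows. It is left in lower case above. None of the 9 windows contained the palindromic SMAD box GTCTAGAC (0.213% of all windows), the PU.1 core GAGGAAGT (3.2%), the E-box CACGTG (7.15%), the FOX site TGTTTAC (3.65%) or the GATA site AGATAA (11.2%). All motifs were searched on both strands, and a match describes only the letters of the window. No motif was shared by all 6 genes.

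**Figure D1:**
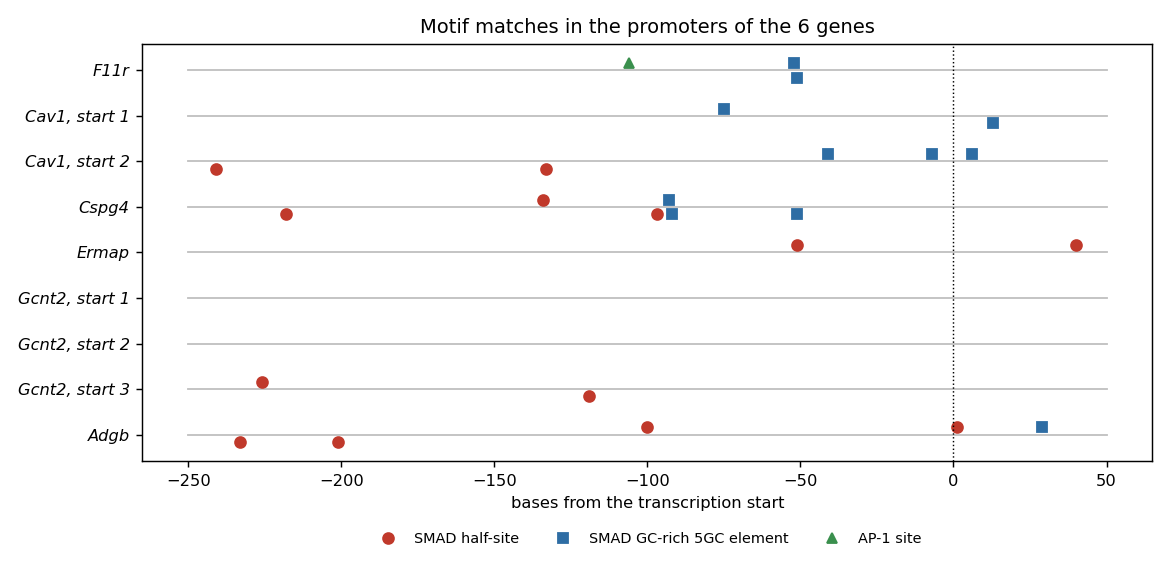
Motif matches in the 9 RefSeq promoter windows, with position in bases from the transcription start (0, dotted line) on the x axis and 1 grey line per window. Red circles are SMAD half-sites, blue squares the GC-rich SMAD element and the green triangle the AP-1 site, above the line for the plus and below it for the minus strand of the gene; *Adgb* has 4 half-sites, *F11r* has none, and the first 2 starts of *Gcnt2* have no match.

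In every one of the 6 genes, each of the 3 Act libraries was above all 9 other libraries, which held for 12.6% of all genes tested. Values are the normalized counts as deposited, whose scaling formula is not given in the sources used here. Among the activin-induced genes, the order of the rise in Act versus CTRL was *Ermap*, *Cspg4*, *F11r*, *Cav1*, *Gcnt2* and *Adgb*, at ranks 2, 7, 18, 19, 31 and 37 of the 14318 genes by log2 fold change. These ranks repeat the selection and carry no test. *Adgb*, the lowest of them, had a log2 fold change of 3.06, and *Tlr12* followed just below it with 2.98. Of the 37 genes with a rise at least that of *Adgb*, 31 were not followed here.

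In CTRL, *F11r* had 16, 43 and 22 normalized counts, against 412, 420 and 463 in Act. With activin A and follistatin together, its values were 33, 37 and 45, and with follistatin alone 21, 13 and 20. The adhesion receptor was thus high in each Act library and low elsewhere, with CTRL replicate 2 the highest of the libraries outside Act except Act + FST replicate 3. The ratio of summed normalized counts, Act over CTRL, was 16 (95% counting interval 12.8 to 20.3), and the log2 fold change was 4.07 ± 0.29 (SE, n = 3 per group). Intervals of this kind treat the scaled values as counts, are therefore approximate, and cover counting error only.

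The CTRL libraries had 15, 17 and 7 normalized counts of *Cav1*, and the Act libraries 214, 156 and 254. It had 26, 5 and 16 in Act + FST, and 18, 6 and 16 in FST. Caveolin-1 RNA was low in all 9 libraries outside Act, and those 3 groups overlapped. The ratio of Act over CTRL was 16 (11.6 to 22.7), and the log2 fold change was 3.96 ± 0.53.

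*Cspg4* was near the lower limit of measurement in CTRL, with 4, 2 and 2 normalized counts, against 151, 75 and 112 in Act. In Act + FST it had 15, 4 and 18, and in FST 9, 0 and 2. The proteoglycan also varied more between the Act libraries than any other of the 6 genes, with a coefficient of variation of 33.7%, against 9.42% from counting alone. The ratio of Act over CTRL was 42.2, with a wide interval (21.2 to 98.7) because CTRL summed to 8 normalized counts, and the log2 fold change was 4.94 ± 0.71.

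*Ermap* showed the largest contrast, from 1, 4 and 4 normalized counts in CTRL to 151, 158 and 163 in Act. It had 2, 3 and 0 in Act + FST, and 2, 3 and 4 in FST. The butyrophilin-like gene was therefore at 0 to 4 normalized counts in all 9 libraries outside Act. Its Act libraries were the most alike of the 6 genes, with a coefficient of variation of 3.83%. That is below the 7.97% from counting alone, so the closeness of these 3 values should not be read further. The ratio of Act over CTRL was 52.4 (27.4 to 115), and the log2 fold change was 5.42 ± 0.50.

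For *Gcnt2*, CTRL was at 17, 24 and 10 normalized counts, and Act at 156, 187 and 189. Values in Act + FST were 19, 17 and 28, and in FST 15, 19 and 13. The glycan-branching enzyme had overlapping values in the 3 groups outside Act. The ratio of Act over CTRL was 10.4 (7.82 to 14.2), and the log2 fold change was 3.38 ± 0.29.

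*Adgb* started from 20, 38 and 33 normalized counts in CTRL and reached 242, 216 and 303 in Act. It had 45, 38 and 78 in Act + FST, and 29, 21 and 43 in FST. Outside Act, androglobin RNA was highest in Act + FST replicate 3, and the 3 groups overlapped. The ratio of Act over CTRL was 8.36 (6.72 to 10.5), the smallest of the 6, and the log2 fold change was 3.06 ± 0.32.

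**Figure D2:**
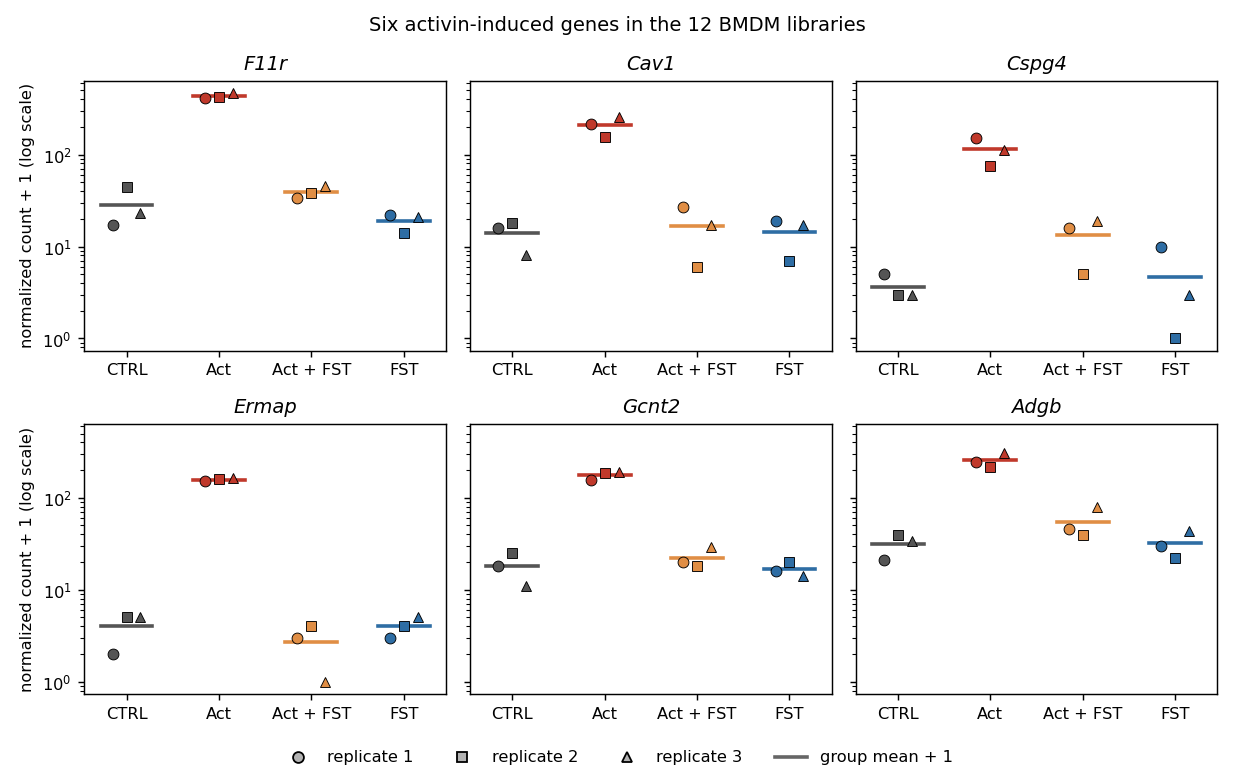
Normalized count + 1 on a log axis for each of the 6 genes, with 1 point per library (shape gives the replicate number) and a bar at the group mean + 1. The 3 Act libraries stand above the other 9 in every panel, and *Ermap* stays at 0 to 4 normalized counts in all libraries outside Act.

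Divided by exonic length, the 6 genes reached different levels in Act. *F11r* was the highest, with 155 to 174 normalized counts per exonic kilobase, and overlapped with no other gene. *Cav1* followed with 45.3 to 73.8 and *Adgb* with 34.9 to 48.9, 2 neighbours in this order whose libraries overlapped. *Ermap* reached 28.5 to 30.8 and *Gcnt2* 22.1 to 26.8 per exonic kilobase, again without overlap with their neighbours. *Cspg4*, with the longest exonic sequence (11931 bases), was the lowest with 6.29 to 12.7 per exonic kilobase. In CTRL *Cspg4* (0.168 to 0.335) and *Ermap* (0.189 to 0.755) were lowest on the same scale and overlapped with each other. *F11r* was at 6.01 to 16.1 per exonic kilobase in CTRL, where it overlapped with *Adgb* (3.23 to 6.14).

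To see how much of the response passed the antagonist, Act + FST was compared with the groups without activin A. The choice did not name the groups that Act was set against. The comparison of Act + FST with FST shares no library with a choice made on Act over CTRL alone, and both groups received follistatin. If Act + FST was also part of the choice, this comparison is not independent of it. A gene was called where limma gave a difference of 2-fold or more with a Benjamini-Hochberg adjusted p no higher than 0.05. In this fit, which had no term for the replicate number, none of the 6 genes was called. None of the 14318 genes tested was called in it either (0%). At an unadjusted p under 0.05 there were 502 genes (3.51%), 26 of them 2-fold or more higher in Act + FST and 27 as much lower, and 3 of the 6 activin-induced genes were among the 502. These were *F11r*, *Cspg4* and *Adgb*.

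*F11r* was higher in Act + FST than in FST by 1.07 on the log2 scale (95% interval 0.43 to 1.70; limma, unadjusted p = 0.0032, adjusted p = 0.81). Its 3 Act + FST libraries lay above all 3 FST libraries, as they did for 3.17% of all genes tested, and it was the only one of the 6 genes with such a separation. *Cspg4* was higher by 1.89 (0.34 to 3.44; limma, unadjusted p = 0.021, adjusted p = 1) and *Adgb* by 0.76 (0.08 to 1.45; limma, unadjusted p = 0.032, adjusted p = 1). The Act + FST and FST libraries of *Cspg4* and *Adgb* overlapped. With the replicate number as a block in the limma fit, the adjusted p was 0.17 for *F11r*, 0.13 for *Cspg4* and 0.27 for *Adgb*, and the replicate block left the number of the 6 genes called at 0.

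For the other 3 genes the 95% interval of the difference from FST included 0. *Gcnt2* differed by 0.41 (−0.21 to 1.03) and *Cav1* by 0.09 (−1.06 to 1.25) on the log2 scale. For *Ermap*, Act + FST was at −0.77 relative to FST (−1.86 to 0.31), with 5 normalized counts in all 3 Act + FST libraries together against 9 in FST. A 2-fold difference is not excluded upwards for *Gcnt2*, downwards for *Ermap*, or in either direction for *Cav1*. *Ermap* entered this comparison only through its level in Act, and its value rests on those few counts.

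Act + FST was also set against CTRL, whose libraries, like those of Act + FST, may have been part of the choice. In the fit without the replicate block, no gene was called in Act + FST versus CTRL (0% of all genes tested). At an unadjusted p under 0.05 in limma there were 655 genes (4.57%), 39 of them 2-fold or more higher and 45 as much lower. *Cspg4*, at 1.69 on the log2 scale (0.14 to 3.24), and *Adgb*, at 0.78 (0.10 to 1.47), had unadjusted p-values of 0.035 and 0.028 in limma. *F11r* was at 0.60 (−0.04 to 1.23), with CTRL replicate 2 inside the range of Act + FST. None of the 6 genes had its Act + FST libraries all above its CTRL libraries, which held for 3.67% of all genes tested. This comparison and that with FST share the Act + FST libraries, and their values are not independent of each other.

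The Act libraries exceeded Act + FST by a ratio of summed normalized counts of 94.4 for *Ermap* (95% counting interval 40.2 to 292, from 5 normalized counts in Act + FST), and by 13.3 for *Cav1*, 11.3 for *F11r*, 9.14 for *Cspg4*, 8.31 for *Gcnt2* and 4.73 for *Adgb*. These values use the Act libraries and describe the genes as selected.

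In FST versus CTRL, again without the replicate block, none of the 6 genes was called (0% of all genes tested). At an unadjusted p under 0.05 in limma there were 299 genes (2.09%), 17 of them 2-fold or more higher and 11 as much lower. None of the 6 was among the 299. For the 5 genes that pass the limit on the mean without Act, the log2 differences ran from −0.47 for *F11r* (−1.11 to 0.16) to 0.02 for *Adgb* (−0.66 to 0.70). *Ermap* had 9 normalized counts in CTRL and 9 in FST over the 3 libraries of each group. *Gcnt2* differed by −0.05 (−0.67 to 0.57), and neither its interval nor that of *Adgb* includes a 2-fold difference. The intervals of *Cav1* (−1.16 to 1.14) and *Cspg4* (−1.74 to 1.35) allow 2-fold differences in both directions.

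**Figure D3:**
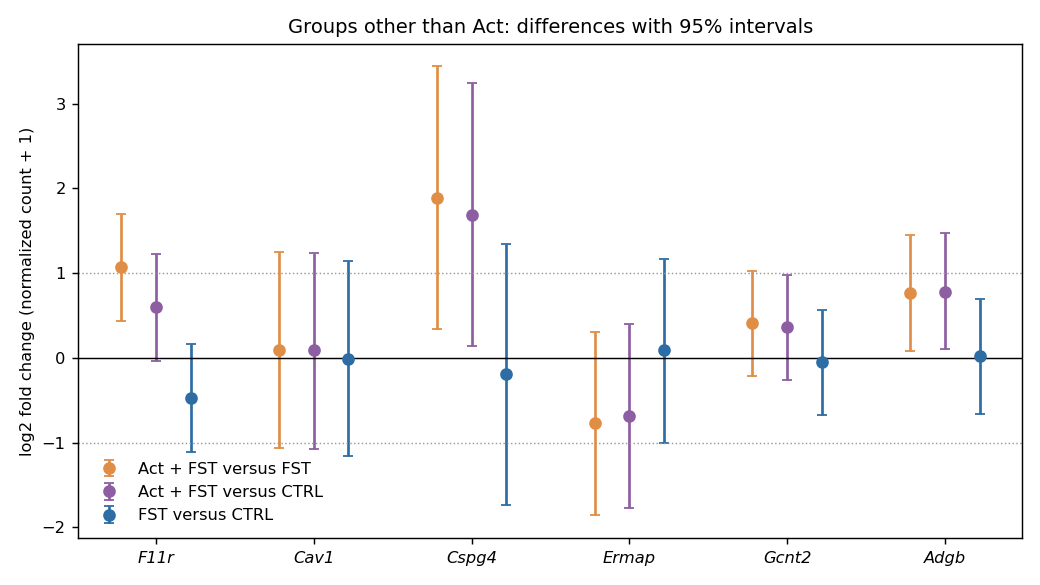
Log2 fold changes (y axis, on normalized count + 1) of the 6 genes in the 3 comparisons that leave out the Act libraries, with 95% intervals from limma (3 libraries per group) and dotted lines at a 2-fold difference. For Act + FST versus FST, *F11r* (1.07), *Cspg4* (1.89) and *Adgb* (0.76) have intervals above 0, and all FST versus CTRL intervals include 0.

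In CTRL and Act, 1 library was the highest for most of the 6 genes. CTRL replicate 2 was the highest CTRL library for 5 of the 6 genes, all but *Cspg4* and with a tie for *Ermap*, and Act replicate 3 was the highest Act library for the same 5. For *Cspg4* the highest CTRL and Act libraries were those of replicate 1. In Act + FST, replicate 3 was the highest for 4 genes and replicates 1 and 2 for 1 each, and in FST the replicates were highest for 3, 1 and 2 genes. Over the 12 libraries, Pearson's r of log2(normalized count + 1) between pairs of the 6 genes ran from 0.752 to 0.974 (15 pairs), all of which include the shared rise in Act. After subtraction of group means and without the Act libraries, r over 9 libraries ran from −0.55 to 0.78 with a median of 0.23. The highest value was that of *Cav1* and *Cspg4* and the lowest that of *Cspg4* and *Ermap*, both with very low counts behind them, and libraries of one replicate number share further variation across all genes.

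The genes outside the 6 with the most similar profile over the 12 libraries were listed for each of them, 3 per gene by Pearson's r. For *F11r* these were *Usp2* (0.991), a deubiquitinase gene, *Slamf6* (0.982), an immunoglobulin superfamily receptor of leukocytes, and *Gm33699* (0.981). For *Cav1* they were *Treml4* (0.987), *Ttc39c* (0.984) and *Phldb1* (0.982). *Treml4* encodes a myeloid immunoglobulin-type receptor. *Cspg4* was most similar to *Arap3* (0.980), *Inpp4b* (0.979) and *Tnfsf8* (0.971). *Arap3* and *Inpp4b* encode proteins of phosphoinositide signalling, and *Tnfsf8* the CD30 ligand. *Tnfsf8* was at 96, 64 and 116 normalized counts in Act + FST, against 51, 40 and 39 in CTRL, and shares with *Cspg4* a level in Act + FST between those of CTRL and Act. *Ermap* was most similar to *H2-DMb2* (0.986), a chaperone chain of MHC class II loading, *Gm26626* (0.976) and *Sowahc* (0.973). *Gcnt2* was most similar to *Pdgfa* (0.987), a platelet-derived growth factor chain, *Spsb1* (0.984) and *Tjp1* (0.981). *Adgb* was most similar to *Als2cl* (0.985), *Clec5a* (0.981), a myeloid C-type lectin receptor, and *Col15a1* (0.981). No gene appeared in more than 1 of these 6 lists of 3.

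Next, genes related to each of the 6 by family or known partnership were examined in Act versus CTRL. Of 151 such genes, 115 were in the table and 94 were tested. In limma, 8 of the 94 (8.51%) were called higher and 2 (2.13%) lower in Act, beside 2.58% and 3.09% of all genes tested. The lists were chosen with earlier results of these data known, so the shares describe the lists as chosen. No test was run over a list. At an adjusted p of at most 0.05 regardless of fold change there were 31 of the 94, beside 20.2% of all genes. Of these 31, 20 were higher and 11 lower in Act, and the median log2 fold change of the 94 was 0.0418. None of the 94 was called in Act + FST versus CTRL.

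Partners of JAM-A held 3 of the 8 calls, out of 18 tested. *Tjp1*, which encodes the junction scaffold ZO-1 that binds JAM-A, was at 3, 5 and 2 normalized counts in CTRL, against 99, 106 and 95 in Act. In Act + FST it had 5, 4 and 3. *Tjp1* rose by 4.60 on the log2 scale (SE 0.35; limma, adjusted p = 3.6e-06), and with CTRL this low the fitted fold depends on the pseudocount. *Itgal*, the αL chain of the integrin LFA-1 and a leukocyte ligand of JAM-A, rose from 761 ± 102 to 1793 ± 148 (SD, n = 3 each; limma log2 fold change 1.24, adjusted p = 3.0e-05). *Cldn1*, a claudin of tight junctions, was called with 1.45 at low counts (9 ± 4.58 to 26.7 ± 14.2; limma, adjusted p = 0.047). That call was lost without CTRL replicate 1 (adjusted p = 0.094), CTRL replicate 3 (0.18), Act replicate 2 (0.19) or Act replicate 3 (0.075). *Afdn*, which encodes the junction scaffold afadin, was at 0.69 (limma, adjusted p = 1.4e-04), below the fold threshold. *Rapgef6* was lower in Act, at −0.50 (limma, adjusted p = 0.0042), also short of that threshold.

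Of 12 tested caveola genes and caveolin partners, 1 was called higher and 1 lower in Act. *Cavin1*, the coat protein needed to form caveolae, fell from 87, 67 and 53 normalized counts in CTRL to 21, 9 and 20 in Act (limma log2 fold change −2.04, SE 0.35, adjusted p = 0.0012). It was at 68, 34 and 62 in Act + FST. *Cav2*, the usual partner of caveolin-1 and its genomic neighbour, had 446 ± 56.5 in CTRL and 424 ± 42.1 in Act (limma log2 fold change −0.07, adjusted p = 0.7). The kinase gene *Src*, whose product phosphorylates caveolin-1, rose from 90 ± 12.5 to 235 ± 41.6 (limma log2 fold change 1.37, adjusted p = 4.6e-04). Thus *Cav1* and *Cavin1* moved in opposite directions in the same libraries, with *Cav1* at 208 ± 49.3 and *Cavin1* at 16.7 ± 6.66 in Act.

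Among 23 cell surface proteoglycans, chondroitin sulfate enzymes and partners of NG2, 1 was called in each direction. *Gpc2*, a glypican, rose from 24 ± 1 to 95.3 ± 14.6 (limma log2 fold change 1.94, adjusted p = 1.1e-04). *Tgfbr3*, the TGF-β co-receptor betaglycan, fell from 39.7 ± 0.577 to 18.3 ± 8.39 (limma log2 fold change −1.15, adjusted p = 0.007), and it was under the fold threshold without Act replicate 2 (−0.96). *Xylt1*, which starts the glycosaminoglycan chain, was at 0.95 (limma, adjusted p = 0.013), just below the fold threshold.

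Of 8 tested relatives of *Ermap* in the butyrophilin and B7 families, 2 were called, both higher and both of the B7 family. *Btnl2*, the only butyrophilin gene tested, was not called (−0.24; limma, adjusted p = 0.48). *Cd276* (B7-H3) rose from 71 ± 19.1 to 224 ± 39.1 (limma log2 fold change 1.66, adjusted p = 0.0043), and *Icosl*, the ligand of the T cell receptor ICOS, from 405 ± 41.9 to 823 ± 47.9 (1.02, adjusted p = 1.1e-05). *Icosl* lay at the fold threshold and dropped below it without CTRL replicate 3 (0.96) or Act replicate 3 (0.98). *Cd86*, which encodes B7-2, was at 0.49 (limma, adjusted p = 0.0083), below the fold threshold. *Cd80* (−0.16) and *Cd274* (−0.16), which encode B7-1 and PD-L1, were not called. Among 22 glycosyltransferases related to *Gcnt2*, *B3gnt7*, which extends poly-N-acetyllactosamine chains, was the one called. It rose from 104 ± 10.1 to 288 ± 6.03 (limma log2 fold change 1.46, adjusted p = 4.3e-07), while *Gcnt1*, a related branching enzyme, was at 0.13. *B3gnt3* fell from 556 ± 37.6 to 364 ± 2.52 (limma log2 fold change −0.61, adjusted p = 1.4e-05), short of the fold threshold. None of 11 tested calpains and calpain regulators related to *Adgb* was called, and the globin gene *Ngb* had a mean of 0.333 in CTRL and 2 in Act, under the limit for testing.

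**Figure D4:**
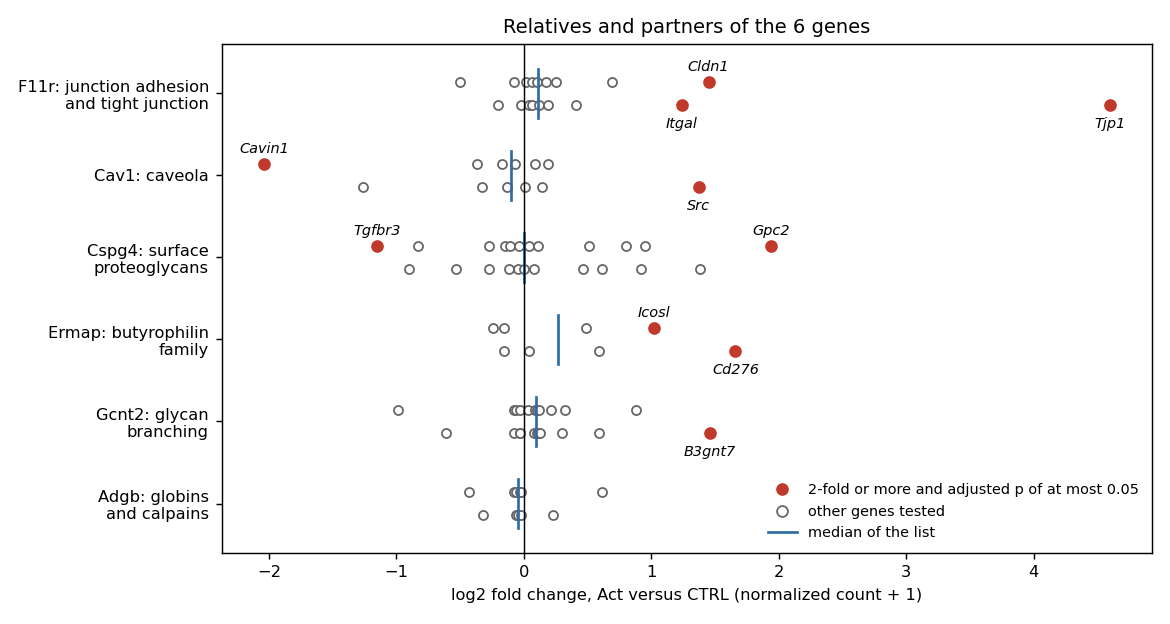
Log2 fold change of Act versus CTRL (x axis, on normalized count + 1) for the 94 tested relatives and partners of the 6 genes, 1 row per list. Filled red points passed a 2-fold change and an adjusted p of at most 0.05 in limma, and blue lines are list medians; *Tjp1* (4.60) stands farthest to the right and *Cavin1* (−2.04) farthest to the left.

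The genes beside the 6 on the chromosome were also examined, in windows chosen after the values were seen. Of 53 tested genes within 250 kb of the 6, 4 (7.55%) were called in Act versus CTRL, beside 5.66% of all genes tested. *Zfp691*, a zinc finger gene that lies 1.26 kb downstream of *Ermap* on the same strand, was at 56, 65 and 45 normalized counts in CTRL, against 380, 397 and 444 in Act. In Act + FST *Zfp691* had 60, 51 and 55. Its log2 fold change in Act was 2.87 (SE 0.16; limma, adjusted p = 4.3e-07). *Svbp*, 5.29 kb on the other side of *Ermap* and on the opposite strand, was at 0.72 (limma, adjusted p = 2.1e-04), below the fold threshold. For the other 5 genes the nearest tested gene was at least 17.2 kb away.

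Around *Cav1*, the receptor tyrosine kinase gene *Met* rose from 42 ± 3 to 90 ± 14.7 (limma log2 fold change 1.07, adjusted p = 0.0028) at a distance of 122 kb. It was below the fold threshold without Act replicate 1 (0.95). Near *Gcnt2*, the kinase gene *Mak* rose by 1.55 (limma, adjusted p = 7.1e-04), and near *F11r* the gene *Pcp4l1* fell by 1.59 on the log2 scale (limma, adjusted p = 1.5e-04). No tested gene within 250 kb of *Cspg4* or *Adgb* was called.

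**Figure D5:**
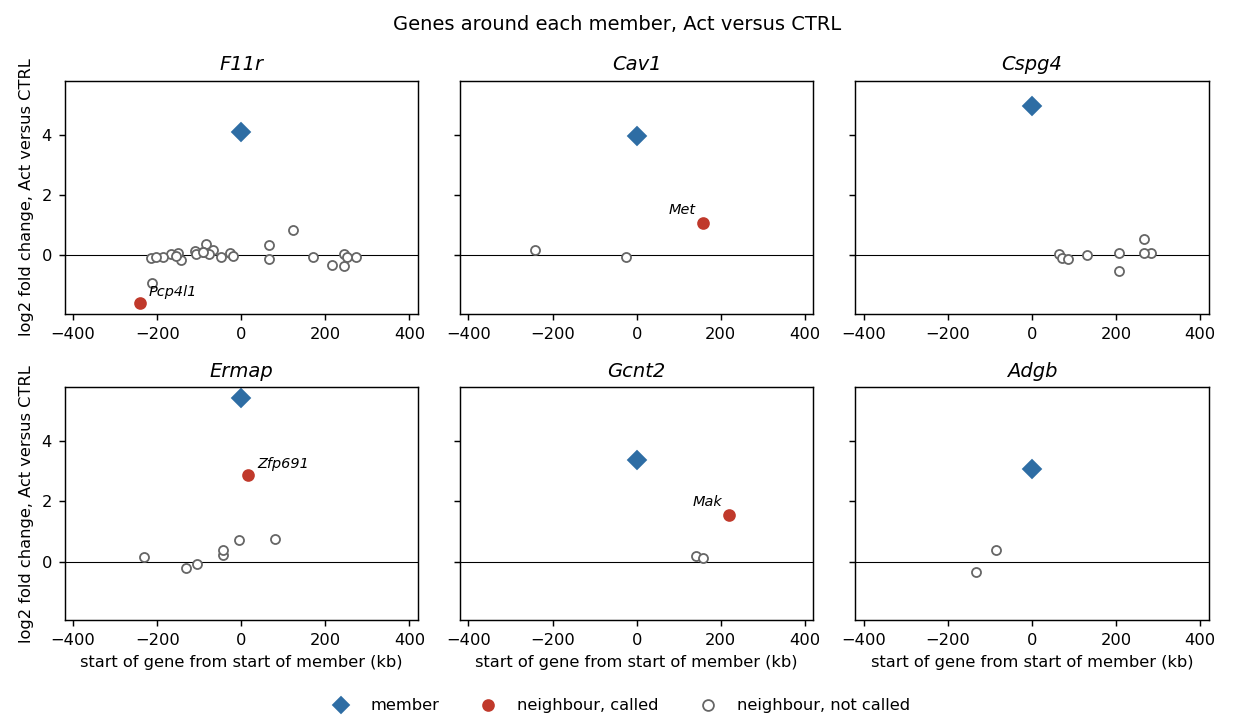
Log2 fold change of Act versus CTRL (y axis) for tested genes within 250 kb of each of the 6 genes, against the distance between gene starts in kilobases (x axis, positive in the direction of transcription of the induced gene). Blue diamonds are the 6 genes, filled red points are neighbours called in limma and open points are not called; *Zfp691* beside *Ermap* is at 2.87.

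Several of the 6 genes are known as markers of other cell types, so the marker genes of those types were measured in the same libraries. In bulk RNA a change in the number of cells of a type and a change in RNA per cell cannot be told apart. None of 12 macrophage markers was called in Act versus CTRL, and their sum was 16720 to 18286 normalized counts in CTRL and 16470 to 17438 in Act. Below the fold threshold, *Mrc1* was lower in Act (−0.51; limma, adjusted p = 1.2e-04). *C1qa* (0.42; limma, adjusted p = 8.3e-04) and *Cd14* (0.23; limma, adjusted p = 0.026) were higher. No other macrophage marker had an adjusted p of at most 0.05. For erythroid cells, to which *Ermap* owes its name, 5 of 16 markers were tested and 3 were called, all lower in Act: *Tmod1* (−2.88), *Tfrc* (−1.57) and *Epor* (−1.38). *Alas2*, *Slc4a1* and the globin genes of the list were not listed in the table, and the summed level of the list was 2092 to 2174 in CTRL and 508 to 761 in Act, opposite in direction to *Ermap*.

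For pericytes and smooth muscle, to which *Cspg4* is often assigned, 5 of 12 markers were in the table and 4 were tested. *Mcam* was called higher, at 2.31 (limma, adjusted p = 0.0066), and *Pdgfrb* was at 0.84 (limma, adjusted p = 0.06). *Acta2*, at 0.40 (limma, adjusted p = 0.25), and *Tagln*, at −0.11 (limma, adjusted p = 0.9), were not called either. *Rgs5*, *Des* and *Notch3* were not listed. The summed level was 66 to 67 in CTRL and 115 to 144 in Act. Of 12 fibroblast markers, 5 were tested and none was called, with a summed level of 59 to 128 in CTRL and 130 to 369 in Act. All 5 had a higher mean in Act: *Fap* was at 0.96 (limma, adjusted p = 0.015) and *Lox* at 0.88 (adjusted p = 0.01), under the fold threshold, and *Col1a2* (2.76), *Postn* (2.07) and *Col1a1* (1.01) had adjusted p-values of 0.31, 0.11 and 0.63. *Col1a1* and *Col1a2* were highest in replicate 1 of every group. *Col1a1* was at 83 in that Act library, 22 in the CTRL library, 35 in the FST library and 28 with both proteins, where the other libraries had at most 8. *Cspg4* was also highest in replicate 1 in CTRL, Act and FST, with 151, 75 and 112 normalized counts in Act replicates 1, 2 and 3. *Col3a1*, *Dcn* and *Thy1* had means of at most 2.67 in CTRL and Act. The part of these cell types in the values of *Cspg4* and *Cav1* was not tested.

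Of 12 endothelial markers, 6 were tested and *Pecam1* alone was called (1.12; limma, adjusted p = 0.033). The call of *Pecam1* was lost without any 1 of CTRL replicates 2 and 3 and Act replicates 1, 2 and 3 (adjusted p from 0.051 to 0.14). The endothelial sum fell from 1931 to 2287 in CTRL to 1325 to 1536 in Act, most of it from *Vwf*, while *Tek*, *Tie1* and *Esam* had means of at most 4.33. For epithelial cells, where JAM-A is best known, 1 of 12 markers was in the table and the sum was at most 5 in every library. None of 5 tested markers of motile ciliated cells, where *Adgb* is known, was called, and *Foxj1* had means of 2.67 in CTRL and 0.333 in Act.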

How the data were processed

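RNA sequencing of BMDMs comprised 12 libraries in 4 groups, with groups and replicate numbers taken from the sample labels. The authors used Trimmomatic 0.39 on the single-end reads, STAR 2.7.9a for alignment to mm10, featureCounts 2.0.2 and DESeq2 1.30.0. The deposited values are a signal, namely whole numbers named normalized counts, with library totals of 5643708 to 5955400. Some genes varied less than read counts of their level would by counting alone. An example is *Flot2*, with an SD of 4.04 to 9.5 in the 4 groups at means of 698 to 782. The values may therefore not behave as read counts, which also limits the counting intervals and the levels per exonic kilobase. The scaling hides the original depth, and the counting error is largest for low genes. The scaling formula and strand setting are not given in the sources used here. Whole reads could not be recovered, so limma 3.58.1 (R 4.3.3, two-sided, with a trend on the mean, Benjamini-Hochberg adjustment) was run on log2(normalized count + 1), with 12 libraries and 4 group means, for 14318 genes with a mean of at least 5. In simulated counts without replicate effects, limma called 188 of 197 genes changed 3-fold (95.4%). Those counts had the same dispersion for all genes, so this share need not hold for low genes such as *Cspg4* and *Ermap*. Counting intervals (95%) come from the exact binomial method applied to the scaled, rounded values, and are approximate for that reason.

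The 6 genes, the lists and the alternatives were chosen with earlier results of these data known. Named relatives are up to 3 called genes per list with the largest change, otherwise the closest family member by name, and the 3 most similar genes per member. Other genes and neighbours named were chosen after their values were seen. Replicate numbers paired the libraries: same-numbered libraries deviated from their group means together (18 pairs, r from 0.157 to 0.481), and a fit with the replicate block was run. Alternatives were other pseudocounts, filters, scalings, thresholds, libraries in the fit and leaving out each library. No library was left out of the results given.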

Additional observations from a re-analysis of the deposited data

How the results depend on the processing

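None of the 6 genes was called in Act + FST versus FST, Act + FST versus CTRL or FST versus CTRL under any alternative run, including the replicate block, which changed no call of the 6 genes. *Cspg4* and *Ermap* have no value at a minimum mean of 50. Partners called higher in Act were 8, and 5 at a minimum mean of 50, 2 in a test against a 2-fold change, 9 with the replicate block, and 6 to 8 without 1 library. Partners called lower were 2, and 1 at a pseudocount of 5, 1 at a minimum mean of 50, and 0 in a test against a 2-fold change. In FST versus CTRL, *Cav1* turned from −0.01 to 0.00 at a pseudocount of 5 and to 0.05 with quantile normalization, and *Cspg4* turned from −0.19 to 0.05 at a pseudocount of 5. Without 1 library at a time, FST versus CTRL ran from −0.77 to −0.09 for *F11r*, from −0.37 to 0.44 for *Cav1*, from −1.04 to 0.62 for *Cspg4*, from −0.35 to 0.31 for *Ermap*, from −0.36 to 0.23 for *Gcnt2* and from −0.24 to 0.26 for *Adgb*. *Cav1* ran from −0.38 to 0.71 in Act + FST versus FST and from −0.39 to 0.70 in Act + FST versus CTRL, and *Cav2* from −0.14 to 0.03 in Act versus CTRL. Act + FST versus CTRL ran from 0.29 to 0.98 for *F11r*, from 1.33 to 2.29 for *Cspg4*, from −1.13 to −0.09 for *Ermap*, from 0.04 to 0.64 for *Gcnt2* and from 0.48 to 0.99 for *Adgb*. In Act + FST versus FST, over all alternatives, *F11r* stayed between 0.86 and 1.19, *Cspg4* between 1.03 and 2.73, and *Adgb* between 0.46 and 1.02. The call of *Cldn1* was also lost at a pseudocount of 0.5 (adjusted p = 0.051), with no filter on the mean (0.056) and with only the 6 libraries compared (0.053, limma), *Tgfbr3* fell under the fold threshold at a pseudocount of 5 (−0.99) and *Icosl* with quantile normalization (0.98). The cause was not tested.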
